A study of Mus musculus with 6 samples.

Results

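The interleukin 2, 7 and 15 genes followed here are 10 of the 46078 genes counted in total RNA from the washed epithelium of the mouse colon. They were chosen by name, as 2 cytokines made in the gut lining (Il15 and Il7), the chain that presents interleukin 15 (Il15ra), 3 lymphocyte receptor chains (Il7r, Il2rb and Il2rg) and 4 signalling genes (Jak1, Jak3, Stat5a and Stat5b). All 10 were found by symbol and all 10 passed the filter on low counts. Cells released from the colon by an EDTA and DTT wash were compared between 3 wild type and 3 Lingo2-/- libraries. The mice were 2 months old and unchallenged in both groups, and the labels do not describe the Lingo2 allele or the strain. Separate animals are not named for the libraries in the labels, so the spread behind each p-value may be technical.

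Interleukin 7 and interleukin 15 keep lymphocytes alive. In the gut, epithelial cells make both, and interleukin 15 is handed over at the cell surface by the alpha chain of its receptor, Il15ra, to lymphocytes that carry Il2rb and the common gamma chain Il2rg. Interleukin 7 is read by Il7r together with the same gamma chain. The receptors carry the kinases Jak1 and Jak3, which activate the transcription factors Stat5a and Stat5b, and many lymphocytes within the epithelium depend on this route.

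The wild type libraries held 25010618 to 28029583 reads on genes and the mutant libraries 7060769 to 13047682 and were thus all shallower. Mitochondrial reads made up 45.3% to 48.4% of them in wild type and 35.7% to 39.8% in mutants. Levels are given as CPM, read counts scaled to the library size with TMM factors. Lingo2 had 0, 7 and 0 reads in wild type and 1, 1 and 0 reads in mutant libraries, too few to check the labels. The epithelial label was met by the 14 epithelial markers, whose summed level was 14177 to 14800 CPM in wild type and 13311 to 15194 CPM in mutant libraries, with none of them past the test in edgeR, DESeq2 or limma voom (1 lower at an unadjusted p under 0.05 in edgeR). Over all 16757 genes tested in edgeR, 9.64% were lower at that p. The fraction also held lymphocytes, with 16 T cell markers summing to 241 to 277 CPM in wild type and 88.2 to 108 CPM in mutant libraries.

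Of the 10 genes, the receptor chains Il2rb and Il2rg fell in the mutant libraries, none rose and 8 did not pass the threshold of 0.05 on the Benjamini-Hochberg adjusted p of edgeR's quasi-likelihood test. Over all 16757 genes tested, 2.57% were called by the same rule, 1.52% lower and 1.04% higher. That background was 430 genes, and it numbered 674 without wild type replicate 3, 174 without mutant replicate 2 and 180 without mutant replicate 3. The 2 members called were Il2rb and Il2rg whichever library was left out, and also by the DESeq2 Wald test and limma voom, neither of which called a rise. At an unadjusted p under 0.05, 6 of the 10 were lower and 0 higher in edgeR, against 9.64% and 9.01% of all genes tested. The fitted log2 fold change, mutant minus wild type, was below 0 for 9 of the 10, against 49.9% of all genes tested. The median over the 10 was −0.29, against 0.00098 over all genes tested. Every mutant library lay below every wild type library for 7 of the 10, and for 11.8% of all genes tested. For Il7r and Stat5a among them the nearest libraries were almost equal (3.39 against 3.37 CPM and 10.48 against 10.47 CPM). For none of the 10 did every mutant library lie above, which 12.3% of all genes tested did.

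**Figure D1:**
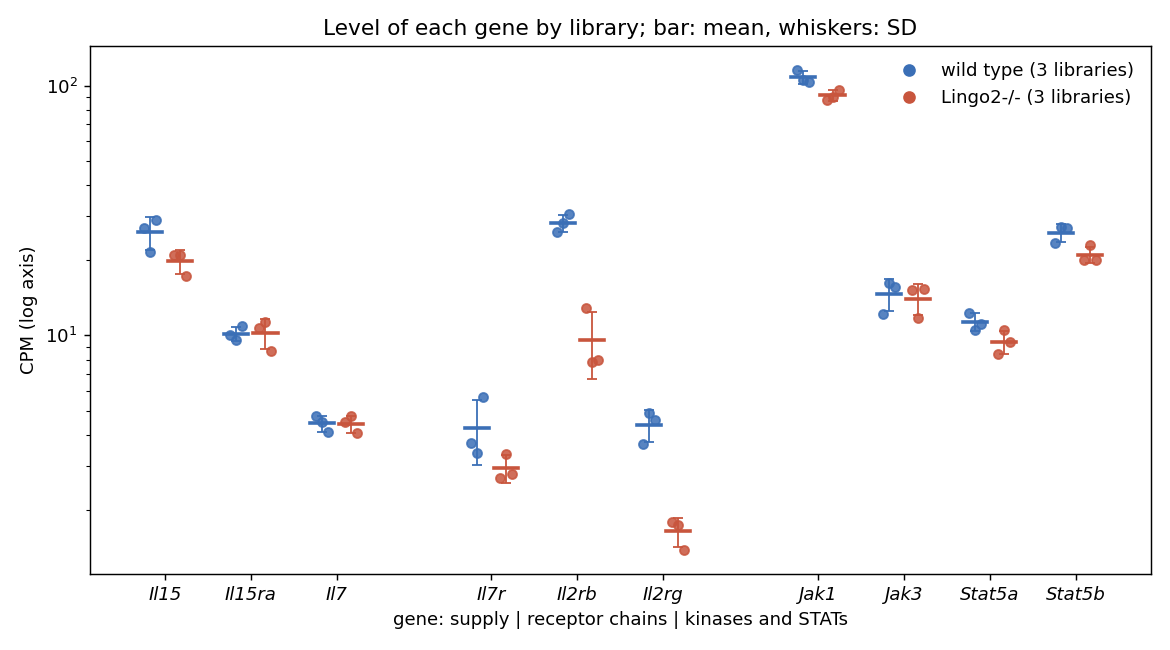
Level of the 10 genes in CPM on a log axis, with points for the 3 wild type libraries (blue) and the 3 Lingo2-/- libraries (red), bars for the mean and whiskers for the SD. Il2rb stood between 25.9 and 30.5 CPM in wild type and between 7.85 and 12.8 CPM in mutant libraries, while the points of Il15ra, Il7 and Jak3 overlapped between the groups.

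The levels differed widely among the 10 genes in wild type libraries. Per length, in RPKM (CPM per kilobase of annotated exon), Jak1 stood highest at 15.0 ± 0.906 (SD, n = 3), followed by Il15 at 11.4 ± 1.68 and Il2rb at 6.57 ± 0.537. Stat5b was at 4.66 ± 0.381 RPKM and Jak3 at 2.75 ± 0.402 RPKM. Il15ra (2.29 ± 0.142 RPKM) overlapped Jak3 over the libraries, and Il2rg (1.84 ± 0.264 RPKM) overlapped Stat5a (1.59 ± 0.131 RPKM). Il7r (0.914 ± 0.263 RPKM) and Il7 (0.785 ± 0.0581 RPKM) were lowest and overlapped each other. In the order of mutant libraries Il2rb stood at rank 6 in place of rank 3, at 2.23 ± 0.661 RPKM, and overlapped Il15ra (2.30 ± 0.312 RPKM). Il2rg was at 0.688 ± 0.0926 RPKM there and overlapped Il7 (0.781 ± 0.0613 RPKM) and Il7r (0.631 ± 0.0789 RPKM). Lengths are the union of all annotated exons, so a gene that uses a short isoform is understated.

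None of the 3 supply genes was called by edgeR, DESeq2 or limma voom, and 1, Il15, was lower at an unadjusted p under 0.05 in edgeR. Il15 (chromosome 8, 82331632 to 82403222, minus strand, GRCm38) encodes the cytokine that sustains CD8 T cells and NK cells. It was at 27.0, 21.6 and 29.0 CPM in wild type replicates 1, 2 and 3 and at 21.0, 21.1 and 17.4 CPM in mutant replicates 1, 2 and 3. The groups did not overlap, although wild type replicate 2 lay just above the highest mutant library. The log2 fold change was −0.38 ± 0.13 (SE, 95% interval −0.66 to −0.099), with an edgeR adjusted p of 0.141. Il15 was called when all genes with any read were kept (−0.40, edgeR adjusted p = 0.0206), and in none of the other 13 alternatives.

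Il15ra (chromosome 2, 11705290 to 11734317, plus strand) encodes the chain that holds interleukin 15 on the surface of the presenting cell. Its level was 10.03, 9.62 and 10.9 CPM in wild type and 10.7, 11.3 and 8.68 CPM in mutant libraries. The mutant libraries held both the highest and the lowest value. The log2 fold change was 0.012 ± 0.14 (95% interval −0.29 to 0.32, edgeR adjusted p = 0.973), and it lay below 0 with upper quartile factors (−0.0064). Il7 (chromosome 3, 7569994 to 7613760, minus strand), the cytokine for lymphocytes that carry Il7r, was at 4.74, 4.51 and 4.09 CPM in wild type and 4.48, 4.74 and 4.05 CPM in mutant libraries. These ranges were almost the same. Its log2 fold change was −0.0071 ± 0.18 (95% interval −0.40 to 0.38, edgeR adjusted p = 0.988), with the sign turned under limma voom (0.0069). Il7 rested on 35 to 65 reads per mutant library.

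Il2rb (chromosome 15, 78479256 to 78495271, minus strand) encodes the beta chain shared by the receptors of interleukins 2 and 15. It was at 25.9, 28.1 and 30.5 CPM in wild type replicates 1, 2 and 3 and at 12.8, 7.85 and 7.98 CPM in mutant replicates 1, 2 and 3. Mutant replicate 1 was the highest of its group and still lay below each wild type library. Il2rb fell 2.87-fold, from 28.2 ± 2.30 to 9.55 ± 2.83 CPM (SD, n = 3; log2 fold change −1.52 ± 0.17, edgeR adjusted p = 0.00103). The reads behind this were 563 to 754 per wild type and 63 to 186 per mutant library. The fitted value was −1.84 without mutant replicate 1 and −1.41 without mutant replicate 2 or 3. In the authors' deposited table the log2 fold change of Il2rb is −1.53, with an adjusted p of 2.95e-12.

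Il2rg (chromosome X, 101264378 to 101268255, minus strand) encodes the common gamma chain of the receptors for interleukins 2, 4, 7, 9, 15 and 21. Its level was 3.68, 4.89 and 4.60 CPM in wild type and 1.79, 1.74 and 1.39 CPM in mutant libraries. The groups were well apart. It fell 2.65-fold, from 4.39 ± 0.630 to 1.64 ± 0.221 CPM (log2 fold change −1.40 ± 0.23, edgeR adjusted p = 0.00810). Counts were low, at 12 to 26 reads per mutant library, and the adjusted p ranged up to 0.04500 when 1 library was left out. In the authors' deposited table the log2 fold change of Il2rg is −1.40, with an adjusted p of 0.00100. The gene Gm20489 covers 30.5% of the exon bases of Il2rg on the same strand and had 0 reads in every library, so reads in the shared part may be missing from Il2rg in both groups.

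Il7r (chromosome 15, 9505788 to 9530176, minus strand) encodes the alpha chain of the interleukin 7 receptor. It was at 3.73, 3.39 and 5.66 CPM in wild type and 2.69, 3.37 and 2.78 CPM in mutant libraries. Wild type replicate 3 stood above the rest, and wild type replicate 2 and mutant replicate 2 were nearly level. The log2 fold change was −0.55 ± 0.25 (95% interval −1.09 to −0.0046, edgeR adjusted p = 0.264), and it was −0.29 without wild type replicate 3. It rested on 24 to 39 reads per mutant library.

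Promoter sequences are shown for Il2rg, the called receptor chain that has an entry, and for Il7r, the receptor chain that was not called. They run from 250 bases before to 50 bases after the annotated start, in the direction of the gene, and come from RefSeq on GRCm38.p6, where 7 of the 10 genes had an entry. Capitals mark matches to TTCNNNGAA, the core bound by STAT5, or to GGAAGT, a core of ETS factors, searched on both strands. The window of Il2rg is chrX:101268206-101268505 (minus strand) and that of Il7r is chr15:9529827-9530126 (minus strand).
Il2rg: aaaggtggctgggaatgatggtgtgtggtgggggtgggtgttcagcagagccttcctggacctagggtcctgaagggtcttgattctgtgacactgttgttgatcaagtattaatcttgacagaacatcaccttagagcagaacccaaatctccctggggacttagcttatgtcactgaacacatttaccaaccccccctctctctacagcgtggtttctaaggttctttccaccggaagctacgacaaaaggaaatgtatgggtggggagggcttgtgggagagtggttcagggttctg
Il7r: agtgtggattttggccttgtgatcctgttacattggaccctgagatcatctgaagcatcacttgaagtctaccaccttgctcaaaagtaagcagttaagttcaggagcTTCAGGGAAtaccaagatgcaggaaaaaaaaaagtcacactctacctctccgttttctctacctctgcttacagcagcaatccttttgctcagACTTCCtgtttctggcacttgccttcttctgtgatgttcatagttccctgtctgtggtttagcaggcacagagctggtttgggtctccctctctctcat

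Il7r held 1 match to TTCNNNGAA, beginning at position −142 with the start as position 0, and 1 match to GGAAGT on the reverse strand, beginning at position −49. Il2rg held neither. Of all 32851 promoter windows in the table, 8.3% held TTCNNNGAA and 23.8% held GGAAGT. These are matches of letters in short windows and were not tested as binding sites.

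Among the 4 signalling genes none was called by edgeR, DESeq2 or limma voom, and 2, Jak1 and Stat5b, were lower at an unadjusted p under 0.05 in edgeR. Jak1 (chromosome 4, 101152367 to 101265282, minus strand), a kinase used by many cytokine receptors in most cell types, was at 116, 106 and 103 CPM in wild type and 87.7, 90.1 and 96.2 CPM in mutant libraries. The groups did not overlap, and the change was small (log2 fold change −0.24 ± 0.09, edgeR adjusted p = 0.170). Jak3 (chromosome 8, 71676296 to 71690575, plus strand) is the kinase that binds the common gamma chain. Its level was 12.2, 16.2 and 15.6 CPM in wild type and 15.2, 11.7 and 15.3 CPM in mutant libraries. The groups overlapped over most of their range. The log2 fold change of Jak3 was −0.059 ± 0.15 (95% interval −0.38 to 0.26, edgeR adjusted p = 0.863), above 0 without wild type replicate 2 (0.016) or mutant replicate 2 (0.039). Insl3, with 1 to 4 reads per library, shares 7.55% of the exon bases of Jak3 on the same strand.

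Stat5a and Stat5b lie next to each other on chromosome 11 (100859351 to 100885169, plus strand, and 100780731 to 100850724, minus strand) and encode closely related transcription factors. Stat5a was at 12.3, 10.5 and 11.2 CPM in wild type and 8.41, 10.5 and 9.37 CPM in mutant libraries, so the nearest libraries of the groups were almost equal. Its log2 fold change was −0.28 ± 0.14 (edgeR adjusted p = 0.310). Stat5b was at 23.4, 27.1 and 27.0 CPM in wild type and 20.1, 22.9 and 20.1 CPM in mutant libraries, and its groups came close without overlap. The log2 fold change of Stat5b was −0.30 ± 0.11 (edgeR adjusted p = 0.159). Of the 50-base words in the annotated transcripts, 8.21% of those of Stat5a were also in Stat5b and 11.0% of those of Stat5b in Stat5a. A read that lies wholly within such a stretch cannot be placed. The read length did not enter this count, so the uncertainty in the split between both genes was not measured.

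**Figure D2:**
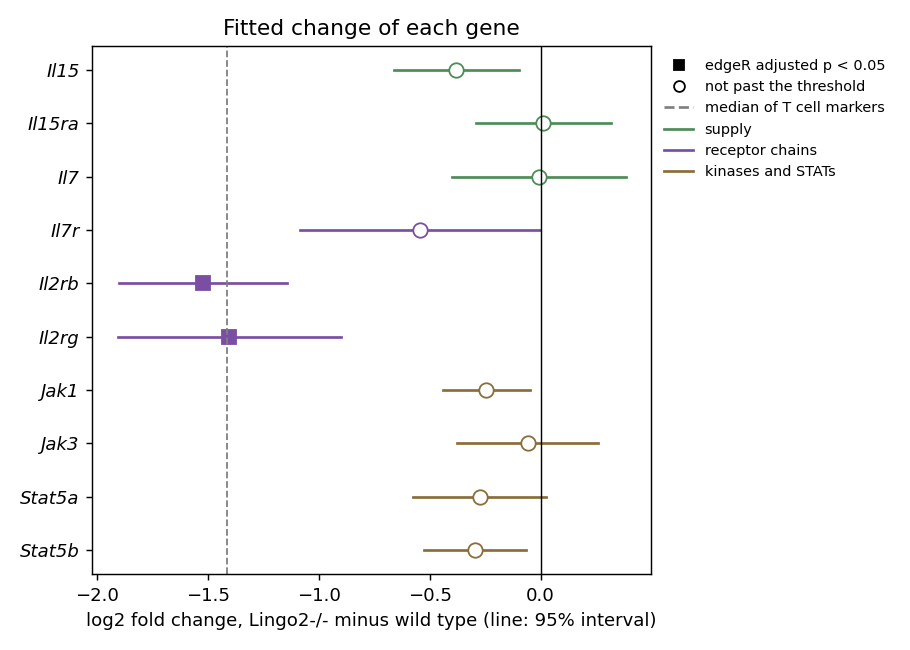
Fitted log2 fold change of each gene, mutant minus wild type, with its 95% interval as a line, filled squares for an edgeR adjusted p under 0.05, open circles for the others and a dashed line at the median of 16 T cell markers (−1.41). Il2rb (−1.52) and Il2rg (−1.40) lie beside that line, and the supply and signalling genes lie between −0.38 and 0.012.

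The contrast of receptors with supply was then taken within each library, as the mean log2 CPM of Il7r, Il2rb and Il2rg minus that of Il15, Il15ra and Il7. It was −0.61, −0.33 and −0.23 in wild type replicates 1, 2 and 3 and −1.33, −1.53 and −1.43 in mutant replicates 1, 2 and 3. The groups did not overlap, and their means differed by −1.04, with a pooled SD within groups of 0.156. Leaving out 1 library gave −1.15 to −0.95. The same contrast for the 4 signalling genes was 1.22, 1.43 and 1.28 in wild type and 1.12, 1.10 and 1.43 in mutant libraries. Here the groups overlapped and the means differed by −0.088, less than the pooled SD of 0.153. Leaving out 1 library gave −0.19 to −0.027, and the −0.19, without mutant replicate 3, was larger than that SD. Before that subtraction, the signalling mean was 4.66, 4.73 and 4.72 in wild type and 4.45, 4.49 and 4.52 in mutant libraries, without overlap. The supply mean was 3.45, 3.30 and 3.45 against 3.33, 3.39 and 3.09, with overlap. These means and both contrasts are taken over chosen genes and carry no test.

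Ratios of Il2rb to single genes, and of Il7r to Il7, were also taken within each library. The CPM of Il2rb divided by that of Il15 was 0.961, 1.30 and 1.05 in wild type and 0.612, 0.373 and 0.460 in mutant libraries. Il2rb divided by Jak3 was 2.12, 1.73 and 1.95 in wild type and 0.845, 0.670 and 0.523 in mutant libraries. Both ratios were lower in 3 of 3 mutant libraries. Il2rb divided by Il7r was 6.95, 8.29 and 5.38 against 4.77, 2.33 and 2.88, again without overlap. Il2rb divided by Il2rg was 7.04, 5.76 and 6.63 against 7.15, 4.50 and 5.75, with overlap. In a two-sided exact permutation test each of the ratios to Il15, Jak3 and Il7r had p = 0.1, the smallest value that 3 against 3 libraries allow, and the ratio to Il2rg had p = 0.6. Il7r divided by Il7 was 0.786, 0.752 and 1.39 in wild type and 0.600, 0.711 and 0.686 in mutant libraries. Those groups did not overlap (exact permutation p = 0.1), with low counts of both genes. The permutation p adjusted over the 9 ratios compared was 0.15 for Il2rb to Il15, Jak3 and Il7r, and 0.15 for Il7r to Il7.

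T cell markers moved with Il2rb and Il2rg. Over all genes tested, 1.52% were called lower and 1.04% higher. Of the 16 markers 14 fell, none rose and the median log2 fold change was −1.41. Cd7, a surface protein of T and NK cells (−2.08 ± 0.13, edgeR adjusted p = 1.08e-05), Cd3g, which relays the signal of the T cell receptor (−1.99 ± 0.13, edgeR adjusted p = 1.79e-05), and Itgae, an integrin chain that binds E-cadherin (−1.17 ± 0.11), were among them. The 14 were 10 to 14 when 1 library was left out, and no marker was at 0 in all libraries. In bulk RNA, fewer cells of a type and less RNA per cell cannot be told apart.

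Relative to the summed CPM of the 16 T cell markers, Il2rb was at 10.7%, 10.2% and 11.2% in wild type and 11.9%, 8.54% and 9.06% in mutant libraries. Il2rg was at 1.52%, 1.77% and 1.69% and at 1.66%, 1.90% and 1.57%. Neither separated the groups, with log2 differences of −0.14 and 0.042 (exact permutation p = 0.4 and 0.7). Il7r was at 1.54%, 1.23% and 2.08% of the marker sum in wild type and at 2.49%, 3.66% and 3.15% in mutant libraries. Jak3 was at 5.07%, 5.86% and 5.74% in wild type and at 14.1%, 12.7% and 17.3% in mutant libraries. These last shares were higher in 3 of 3 mutant libraries (exact permutation p = 0.1 for each, adjusted p = 0.15). The marker sum itself was 241 to 277 CPM in wild type and 88.2 to 108 CPM in mutant libraries. A gene that fell less than this sum thereby takes a higher share. The markers are RNA levels and not cell counts, so a share of their sum is not a level per cell.

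**Figure D3:**
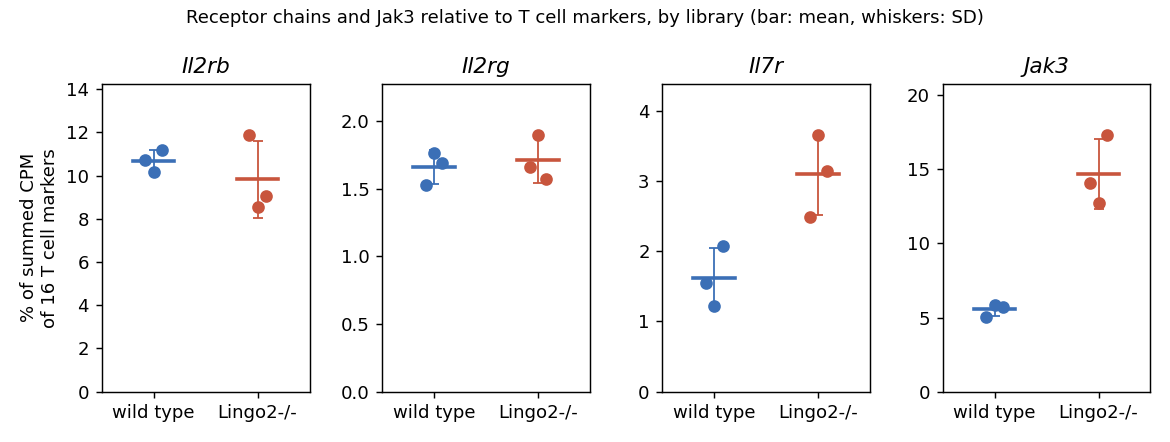
CPM of Il2rb, Il2rg, Il7r and Jak3 as a percentage of the summed CPM of 16 T cell markers in each library, with bars for the mean and whiskers for the SD of 3 libraries. Shares of Il2rb and Il2rg overlap between genotypes, and those of Il7r (1.23% to 2.08% against 2.49% to 3.66%) and Jak3 (5.07% to 5.86% against 12.7% to 17.3%) do not.

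Other leukocytes can carry the same receptors. Of 7 tested markers of NK and innate lymphoid cells, the lectin-like receptor genes Klrd1 (−1.46 ± 0.26, edgeR adjusted p = 0.0282) and Klrk1 (−0.95 ± 0.21, edgeR adjusted p = 0.0333) fell. Leaving out wild type replicate 2 or mutant replicate 3 gave a count of 0, and leaving out wild type replicate 3 or mutant replicate 2 gave 1. The DESeq2 Wald test called 2 and limma voom 3. At an unadjusted p under 0.05 in edgeR 5 of the 7 were lower and 1, Kit, was higher, against 9.64% and 9.01% of all genes tested. Calls over all genes tested were 1.52% lower and 1.04% higher. The summed level of the 9 markers was 75.7 to 91.0 CPM in wild type and 73.0 to 78.1 CPM in mutant libraries. Most of it came from Kit, a receptor that other cell types also carry, at 46.5, 55.3 and 52.8 against 58.2, 62.8 and 65.2 CPM (0.27 ± 0.10, edgeR adjusted p = 0.159). Without Kit the sum of the other 8 was 29.3 to 35.7 CPM in wild type and 10.2 to 17.9 CPM in mutant libraries, a sum taken after the values were seen. The defining NK cell gene Ncr1 was at 0.782, 0.634 and 0.298 against 0.069, 0.125 and 0.347 CPM, with overlap, and was below the filter.

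Of 11 tested macrophage and dendritic cell markers Fcer1g (−1.41 ± 0.24), Itgax (−0.99 ± 0.20) and Tyrobp (−1.11 ± 0.24) fell, against 1.52% of all genes tested. Lymphocytes within the epithelium can also express these genes, and which cells their reads came from was not tested. With wild type replicate 2 left out the count called in the macrophage and dendritic list was 1. The count was also 1 with either mutant replicate 2 or 3 left out. The sum over 13 markers was 177 to 185 CPM in wild type and 138 to 201 CPM in mutant libraries. None of 9 B and plasma cell markers was called by edgeR (median 0.46, summed level 123 to 144 CPM in wild type and 141 to 167 CPM in mutants), although leaving out wild type replicate 2 gave 3 that rose and leaving out mutant replicate 1 gave 1. At an unadjusted p under 0.05 in edgeR 3 of them were higher and 0 lower, against 9.01% and 9.64% of all genes tested. For the B and plasma cell markers DESeq2 called 1 higher and limma voom 0. Of 6 tested granulocyte and mast cell markers edgeR, DESeq2 and limma voom called none (2 lower and 1 higher unadjusted in edgeR), with a sum of 36.1 to 88.6 CPM and 22.2 to 44.0 CPM and Mpo at 0 in all libraries. Of 12 tested stromal and endothelial markers the same tools also called none (2 lower and 0 higher unadjusted in edgeR), with 345 to 992 CPM and 237 to 514 CPM, and 1 fell without wild type replicate 3. The part of these cells in the levels of Il2rg, Il7r and Jak3 was not tested.

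Beyond the 10 genes, 43 genes of the same pathway were listed in 6 groups, and 36 of them were tested. The kinase gene Pim1 fell, none rose and 35 did not pass, against the 1.52% and 1.04% of all genes. At an unadjusted p under 0.05 in edgeR 9 were lower and 3 higher, against 9.64% and 9.01% of all genes, and DESeq2 and limma voom also called 1 gene lower and 0 higher. The median over the 36 was −0.11. Every mutant library lay below every wild type library for 8 of the 36 and above for 3, against 11.8% and 12.3% of all genes.

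The call lay in the group listed as survival genes downstream of STAT5, which also holds genes that promote cell death. Pim1, a kinase that promotes survival and is induced by STAT5, was at 15.2, 17.2 and 14.9 CPM in wild type and 11.4, 10.6 and 9.25 CPM in mutant libraries. It fell in all 3 mutant libraries (log2 fold change −0.59 ± 0.13, edgeR adjusted p = 0.0301). The call ended without wild type replicate 1 or 2 or mutant replicate 2 or 3 (edgeR adjusted p = 0.0531 to 0.111). The other 8 tested genes of this group were not called. Among these, Bcl2, the anti-apoptotic protein that interleukins 7 and 15 maintain in lymphocytes, was at 24.5, 30.9 and 33.9 against 23.6, 23.2 and 20.4 CPM (−0.41 ± 0.13, edgeR adjusted p = 0.114), and it was called once wild type replicate 1 was left out (−0.53, edgeR adjusted p = 0.0335). Its relative Mcl1 was at 254, 191 and 272 against 234, 233 and 241 CPM (−0.016 ± 0.13, edgeR adjusted p = 0.961). Bcl2l1 (−0.092 ± 0.11, edgeR adjusted p = 0.692) and Pim2 (0.033 ± 0.24, edgeR adjusted p = 0.957) were near 0 with overlap of the groups. Of the genes that promote cell death, Bcl2l11 (−0.32 ± 0.10, edgeR adjusted p = 0.128) and Bak1 (−0.29 ± 0.10, edgeR adjusted p = 0.158) were lower without overlap of the groups. Bax (0.036 ± 0.12, edgeR adjusted p = 0.899) and Bbc3 (0.12 ± 0.30, edgeR adjusted p = 0.861) lay above 0 with overlap. Bcl2, Mcl1, these death-promoting genes and the feedback gene Cish below were picked for their roles after their values were seen. Bcl2l1 and Pim2 were then added to complete the tested genes of the group.

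**Figure D4:**
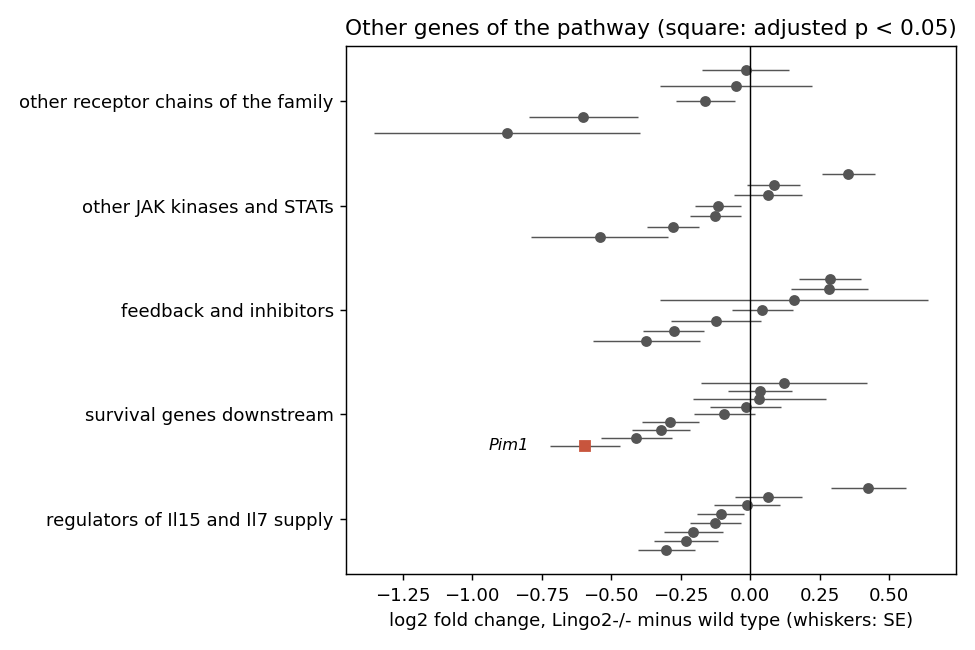
Fitted log2 fold changes, mutant minus wild type, of the 36 tested pathway genes outside the 10, grouped by role, with the SE as whiskers. Pim1 (−0.59, red square) is the 1 gene past the threshold of 0.05 on the adjusted p, and the other genes (grey) lie on both sides of 0.

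Of 7 genes for feedback on JAK and STAT signalling or its inhibition, none was called. Cish, an inhibitor that STAT5 induces, was at 7.77, 8.02 and 8.69 CPM in wild type and 8.96, 6.73 and 6.48 CPM in mutant libraries, with overlap (−0.12 ± 0.16, 95% interval −0.47 to 0.23, edgeR adjusted p = 0.726). Its promoter is shown because it carries the STAT5 core in duplicate, at chr9:107296409-107296708 (plus strand, RefSeq, GRCm38.p6), with the matches to TTCNNNGAA in capitals beginning at positions 0 and 11 from the annotated start.
Cish: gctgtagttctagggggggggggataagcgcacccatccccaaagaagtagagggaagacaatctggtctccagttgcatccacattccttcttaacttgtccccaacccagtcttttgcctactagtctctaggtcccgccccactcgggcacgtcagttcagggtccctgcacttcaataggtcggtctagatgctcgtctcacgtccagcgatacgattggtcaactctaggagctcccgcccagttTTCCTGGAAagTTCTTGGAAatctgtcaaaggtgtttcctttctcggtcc

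The adaptor Sh2b3, which restrains JAK signalling, had the smallest p of the feedback group (0.29 ± 0.11, edgeR adjusted p = 0.198), followed by the phosphatase Ptpn6 (−0.27 ± 0.11, edgeR adjusted p = 0.204). Of 7 other JAK and STAT genes none was called. Stat2, a mediator of interferon signals, was at 54.6, 65.9 and 62.6 against 79.4, 81.0 and 73.5 CPM (0.35 ± 0.10, edgeR adjusted p = 0.0740), with each mutant library above each wild type library. Stat3, which serves interleukin 6 family cytokines, was at −0.28 ± 0.09 (edgeR adjusted p = 0.136).

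Other receptor chains of the family had 5 tested genes and no call. Il21r, the receptor of interleukin 21, was at 8.74, 12.6 and 10.8 against 8.82, 6.61 and 5.44 CPM (−0.60 ± 0.20, edgeR adjusted p = 0.129), and mutant replicate 1 lay within the wild type range. Il9r was at −0.87 ± 0.48 (edgeR adjusted p = 0.353), on 3 to 5 reads per mutant library. Il2ra, the alpha chain that completes the high-affinity receptor of interleukin 2, was below the filter with 2 to 12 reads per library. The other gamma chain ligands listed and Tslp were near the floor and none was tested. Il2 had 0 to 3 reads, Il4 had 1 to 8, Il21 had 0 or 1 and Tslp had 1 to 3 reads per library. Il9 had 0 reads in every library, which allows up to 3 reads, or 0.112 to 0.138 CPM per wild type and 0.207 to 0.374 CPM per mutant library, counting error only.

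Among 8 regulators of Il15 and Il7 supply none was called. Nlrc5, an interferon-induced regulator of class I antigen presentation genes, was at 23.9, 34.8 and 34.2 against 40.8, 43.9 and 40.3 CPM (0.43 ± 0.14, edgeR adjusted p = 0.123), and the log2 fold change was 0.27 without wild type replicate 1. Irf2, an interferon regulatory factor, was at 41.5, 34.2 and 38.5 against 31.7, 32.3 and 28.6 CPM (−0.30 ± 0.10, edgeR adjusted p = 0.141). Neither pair of groups overlapped, and they lay on opposite sides of 0.

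Genes whose log2 CPM ran most like that of a member over the 6 libraries were listed for Il2rb, Il15 and Il7 among 12846 genes. The 5 nearest to Il2rb were Emb, Gimap7, Xcl1, Cd48 and Sash3, with Pearson's r from 0.997 to 0.9997. All 5 fell, by 0.93 to 1.87 on the log2 scale. Because r was taken across both groups, genes picked for it share the group difference of Il2rb by choice. The 5 nearest to Il15 were Btbd9, Mtm1, Hba-a2, Mpp1 and Chmp4c (r from 0.987 to 0.998), and none of them was called. For Il7 they were Wdr46, Ubxn10, Ltv1, Snupn and Ndufa12 (r from 0.970 to 0.989), none of them called. Genotype and depth split the 6 libraries in the same way, so such values are only a description of these libraries.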

How the data were processed

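The authors deposited whole-number read counts per gene for 6 libraries of stranded total RNA. The submitters' processing notes name STAR, HTSeq, Trimmomatic 0.39 and DESeq2, and the build GRCm38. Its annotation and strand setting were not given in the sources used. The 5 summary lines of the count table were left out. Reads in no feature were 18.5% to 22.1% of the table's total per wild type library and 23.6% to 27.6% per mutant library. A second deposited table holds the authors' normalized signal per library (the count times 1 factor per library), log2 fold changes, test score and p-values, of which the log2 fold changes and adjusted p-values of members are quoted.

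The test was that of edgeR 4.0.16, run in R 4.3.3 (filterByExpr, TMM, robust quasi-likelihood F test), with Benjamini-Hochberg adjustment over 16757 genes. SE was taken as the log2 fold change over the root of F. Log2 CPM used a prior count of 0.5. The script was tested on simulated data. Positions and exon lengths came from GENCODE M21 (GRCm38). Alternatives were DESeq2 1.42.0 size factors and Wald test, limma 3.58.1 voom, other filters and factors, a replicate block and leaving out mitochondrial genes or each library.

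The members and lists were chosen with earlier results of these data known. Named genes are the 10 members, Lingo2, called genes of the pathway lists (where a list had none, the 2 of smallest p), up to 3 called markers per list, and the 5 genes most like Il15, Il7 and Il2rb. Bcl2, Mcl1, Bcl2l1, Pim2, Bcl2l11, Bak1, Bax, Bbc3, Cish, Kit, Ncr1, Mpo, Il2ra and the untested cytokine genes lie outside this rule and were named after their values were seen. No pair of replicates agreed within sampling noise (chi-square per degree of freedom 8.40 to 19.4). A further marker of the NK and innate lymphoid list is not reported here.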

Additional observations from a re-analysis of the deposited data

How the results depend on the processing

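The genes called numbered 1493 with no filter, 655 by the DESeq2 Wald test and 174 to 674 with 1 library left out. With no filter the median total degrees of freedom per gene in edgeR were 115316, against 11.9 with the filter, so its calls rest on a spread taken as nearly the same for all genes; it also called Il21r (−0.62), Stat2 (0.33), Bcl2 (−0.43) and Nlrc5 (0.40). Of the 10 members, 2 were called lower and 0 higher under all 14 alternatives except with no filter, where Il15 was also called lower, giving 3. Il2rb ranged from −1.84 to −1.41 (edgeR, voom or DESeq2 adjusted p up to 0.00665) and Il2rg from −1.51 to −1.31 (adjusted p up to 0.04500). The sign turned for Il15ra with upper quartile factors (−0.0064), with no filter (−0.0090) and with 1 library left out (−0.067 to 0.104). It turned for Il7 under limma voom (0.0069) and with 1 library left out (−0.065 to 0.040), and for Jak3 with 1 library left out (−0.17 to 0.039). The cause was not tested. With the replicate number as a block 360 genes were called, 2 of them members, and the calls went from 2 to 0 for NK and innate lymphoid, from 3 to 1 for macrophage and dendritic and from 14 to 13 for T cell markers. Same-numbered libraries correlated at −0.12, 0.11 and −0.016 in their deviations from the group mean, and differently numbered ones at −0.14 to 0.17. With 3 libraries per group, such values cannot tell whether equal numbers share an animal, litter or day. Pim1 was at −0.60 with the block (adjusted p = 0.0546). The alternatives for these 4 genes and Pim1 were chosen after seeing the data. Depth is lowest for Il7, Il7r and Il2rg, which had 12 to 65 reads in each mutant library.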
